A study of Rattus norvegicus with 4 samples.

Results

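The miRNAs described here are miR-99a-5p, miR-99b-5p, miR-100-5p, miR-125a-5p and miR-125b-5p, 5 of 687 rat mature miRNAs in the RefSeq reference and 5 of 408 with reads in these libraries. A sequenced small RNA (a tag) was given to a member if its first 18 nt were identical to those of the member, and the longest common start decided between members. Over the 4 libraries, 1527 distinct tags belonged to the 5 members, between 658 and 714 in each library. The members are known by name and were not chosen by their values, but earlier results of these data were known when they were proposed.

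The small RNA came from smooth muscle cells of the aorta wall of Sprague-Dawley rats, with a single control library and 3 libraries from cells exposed to angiotensin II (Ang II) at 100 nM, a vasoconstrictor hormone to which such cells respond. All 4 cultures, the control included, had been grown with 10% FBS and then deprived of serum for 48 h, and the treated ones were collected 1 h, 3 h and 24 h after Ang II was added. With 1 library per group there was no replicate and no test of conditions, so a difference describes these libraries. The control carries no time in culture of its own, so Ang II and hours in culture cannot be told apart.

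miRNAs are short RNAs cut from the arms of hairpin transcripts, and they repress mRNAs that pair with their seed, the bases just after the first. miR-99 and miR-100 share one seed and are known for repressing the growth kinase mTOR and the receptor IGF1R; miR-100 has been tied to mTOR in vascular cells. miR-125 is the vertebrate relative of the worm miRNA lin-4, is known for repressing the let-7 inhibitor LIN28, and in zebrafish and human cells miR-125b represses p53. The genes of both families lie beside let-7 genes in 3 related clusters.

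The seed sets the targets, so the mature sequences are shown first, 5′ to 3′ as RefSeq gives them (GRCr8), with the seed (bases 2 to 8) in capitals. RefSeq mature sequences were matched for 4 of the 5 members and for 6 of 6 opposite arms of their hairpins. The 3 miR-99/100 members share the seed ACCCGUA and both miR-125 members share CCCUGAG.
miR-99b-5p: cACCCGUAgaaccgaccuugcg
miR-100-5p: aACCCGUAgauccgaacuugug
miR-125a-5p: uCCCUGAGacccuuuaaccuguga
miR-125b-5p: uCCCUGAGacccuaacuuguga
miR-351-5p: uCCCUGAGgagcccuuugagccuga
miR-99a-5p was counted at the most-read start on the 5′ arm of the RefSeq Mir99a hairpin, and its full length was taken as 22 nt, that of miR-100-5p. It is identical to miR-100-5p in 17 of the first 18 bases and differs by A16U, with miR-100-5p first and positions counted from 1 at the 5′ end. miR-99b-5p matches either of them in 15 of 18, and miR-125a-5p and miR-125b-5p are identical over their first 13 bases. miR-351-5p, the one other reference miRNA with a member's seed, carries that of miR-125.

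Each of the 3 clusters holds a miR-99/100 gene, a let-7 gene and a miR-125 gene in that order on the plus strand (GRCr8). Mir99b, Mirlet7e and Mir125a span 696 nt at chr1:67350064-67350759, and the annotated protein-coding gene Spaca6 overlaps them. Mir99a, Mirlet7c1 and Mir125b2 lie at chr11:29687392-29732659 within the lncRNA LOC103693508. Mir100, Mirlet7a-2 and Mir125b1 lie at chr8:50798295-50850122, where Lnc215 and Mir100hgl overlap all 3. miR-125b-5p is made from both Mir125b1 and Mir125b2, so its reads cannot be assigned to one gene, whereas the opposite arms of these hairpins differ in sequence.

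The libraries held 14395539 sequence reads (control), 13119417 (1 h), 14370167 (3 h) and 14534892 (24 h), and levels are given as reads per 1e6 of these (RPM). Reads matching a reference miRNA made up 68.5% in the control library and 72.8%, 74.5% and 72.0% at 1 h, 3 h and 24 h. Smooth muscle markers miR-143-3p and miR-145-5p summed to between 250472 and 312175 RPM. Nearly all of it was miR-143-3p, with miR-145-5p between 2216 and 2463 RPM. The endothelial marker miR-126-3p lay between 96.3 and 114.8 RPM. Of 5 blood and immune markers in the reference, 3 were at 0 reads in every library and the list summed to at most 0.757 RPM; 4 epithelial markers summed to at most 6.71 RPM, with miR-200a and miR-200b not analysed here. Striated muscle markers summed to 98.4 to 122.2 RPM, nearly all of it miR-1-3p, with miR-133b and miR-208a at 0, and 3 neural markers summed to 67.8 to 87.0 RPM. Intervals given below are exact, at 95%, and cover counting error alone. They treat reads as independent, which copies made by PCR are not, so they can be too narrow.

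The 5 members were among the abundant miRNAs of these cells at every time, in an order that hardly varied. Together they held 2.47% of sequence reads in the control library and 2.05%, 1.98% and 2.00% at 1 h, 3 h and 24 h. miR-99b-5p was the most abundant, with 12405 RPM in the control library, 10171 at 1 h, 9276 at 3 h and 9384 at 24 h, ranking 10 among all miRNAs in each. miR-125b-5p followed with 6679, 5858, 5825 and 6030 RPM (rank 12 or 13). Both therefore stood in the top 13 miRNAs of all 4 libraries. miR-100-5p had 4398 RPM in the control library, 3511 at 1 h, 3681 at 3 h and 3613 at 24 h (rank 17 or 18).

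miR-125a-5p and miR-99a-5p were far less abundant and close to each other. miR-125a-5p had 655.8, 501.9, 476.9 and 522.9 RPM in the control, 1 h, 3 h and 24 h libraries, and miR-99a-5p had 595.3, 501.5, 531.7 and 459.7 RPM. At 1 h their counting intervals overlapped (489.8 to 514.1 RPM for miR-125a-5p, 489.4 to 513.7 for miR-99a-5p), at 3 h miR-99a-5p was the higher, and in the control and 24 h libraries miR-125a-5p was. These are levels of different sequences, and adapter ligation can favour one sequence over another, so distances between members are less certain than distances between libraries.

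**Figure D1:**
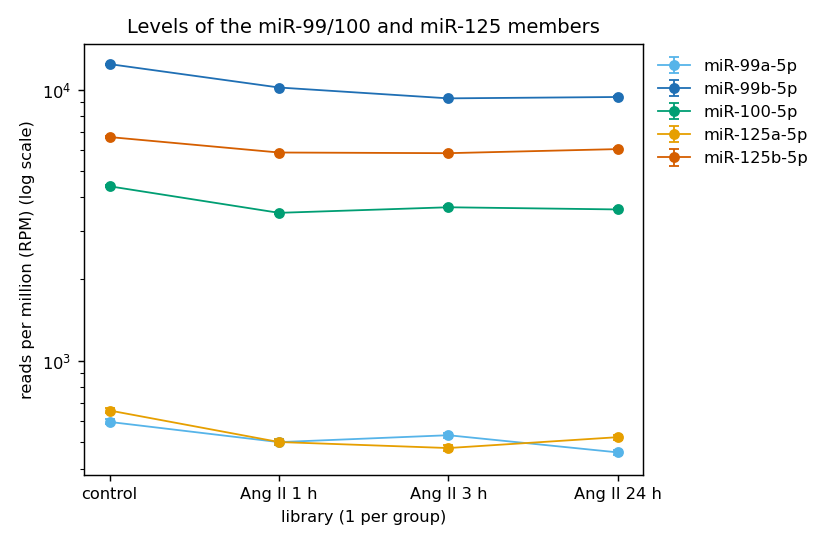
Level of each member (RPM, log axis) in the control library and at 1 h, 3 h and 24 h of Ang II, 1 library per group; bars are exact 95% Poisson intervals and mostly fall within the points. miR-99b-5p lies highest at 9276 to 12405 RPM, and miR-99a-5p and miR-125a-5p lie together at 460 to 656 RPM.

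Within each seed group one member supplied most of the reads. miR-99b-5p made up 71.3% of miR-99/100 reads in the control library and 71.7%, 68.8% and 69.7% at 1 h, 3 h and 24 h. miR-100-5p supplied 25.3%, 24.8%, 27.3% and 26.9%, and miR-99a-5p between 3.42% and 3.94%. In the miR-125 group miR-125b-5p held 91.1% in the control library and 92.1%, 92.4% and 92.0% after Ang II. The 2 members encoded side by side on chromosome 1 did not have like levels. miR-99b-5p had 17.9 to 20.3 reads for each read of miR-125a-5p, whose gene lies in the same 696 nt. miR-125b-5p, made on chromosomes 8 and 11, had 1.52 to 1.67 reads for each read of miR-100-5p from chromosome 8. Between different clusters, miR-100-5p had 6.92 to 7.86 reads for each read of miR-99a-5p from chromosome 11.

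All 5 members were lower than the control at 1 h, 3 h and 24 h, each by less than 1.5-fold. Their ratios to control ranged from 0.765 to 0.877 at 1 h, from 0.727 to 0.893 at 3 h and from 0.756 to 0.903 at 24 h. A miRNA was counted as higher or lower when log2 of (RPM + 1) over (RPM + 1) passed 1.5-fold and the higher library held 100 reads or more. By this rule 0 of 5 members were called at 1 h, where 2.29% of 175 tested miRNAs were higher and 2.29% lower. Likewise 0 of 5 were called at 3 h, where 3.95% of 177 were higher and 3.95% lower, and 0 of 5 at 24 h, where 5.03% of 179 were higher and 16.2% lower. The members' median log2 ratio was -0.29 at 1 h, -0.26 at 3 h and -0.33 at 24 h, beside -0.09, -0.05 and -0.25 for all tested miRNAs, of which 62.9%, 57.6% and 73.2% lay below the control.

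Among the miR-99/100 members the lowest ratio belonged to a different member at 1 h than later. miR-99b-5p stood at 0.820 times the control at 1 h (0.814 to 0.826), 0.748 at 3 h (0.742 to 0.753) and 0.756 at 24 h. miR-100-5p stood at 0.798, 0.837 and 0.822, and miR-99a-5p at 0.842, 0.893 and 0.772 (0.748 to 0.798 at 24 h). The 3 members summed to 14183 RPM at 1 h, 13489 at 3 h and 13457 at 24 h, against 17398 RPM in the control library, ratios of 0.815, 0.775 and 0.773. The seed ACCCGUA as a whole was thus about as low at 24 h as at 3 h.

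In the miR-125 group, miR-125a-5p was further below the control than miR-125b-5p at each time. miR-125a-5p stood at 0.765 times the control at 1 h (0.741 to 0.790), 0.727 at 3 h (0.705 to 0.750) and 0.797 at 24 h (0.774 to 0.822). miR-125b-5p stood at 0.877, 0.872 and 0.903, the closest of the 5 to the control at 1 h and 24 h. Summed, the group had 6360, 6302 and 6553 RPM at 1 h, 3 h and 24 h, against 7334 RPM in the control library. The 3 comparisons share one control library, so a low ratio at every time is in part one measurement. Set against the 1 h library, the 5 members at 24 h had ratios between 0.917 (miR-99a-5p) and 1.04 (miR-125a-5p), 3 of them above 1; 0 of 5 were called there, where 3.53% of 170 miRNAs were higher and 8.24% lower.

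The distance from the control moved with how reads were scaled. miR-143-3p alone held 302819, 309959 and 305533 RPM at 1 h, 3 h and 24 h, against 248197 RPM in the control library, and its part in the members' ratios was not tested. With TMM factors, which set the typical miRNA as level, the members' median log2 ratio was -0.21, -0.22 and -0.075 at 1 h, 3 h and 24 h, and miR-125b-5p at 24 h lay above the control (log2 ratio 0.10, and 0.10 with median-of-ratios factors). The other 14 of 15 member values stayed below it under both factors.

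**Figure D2:**
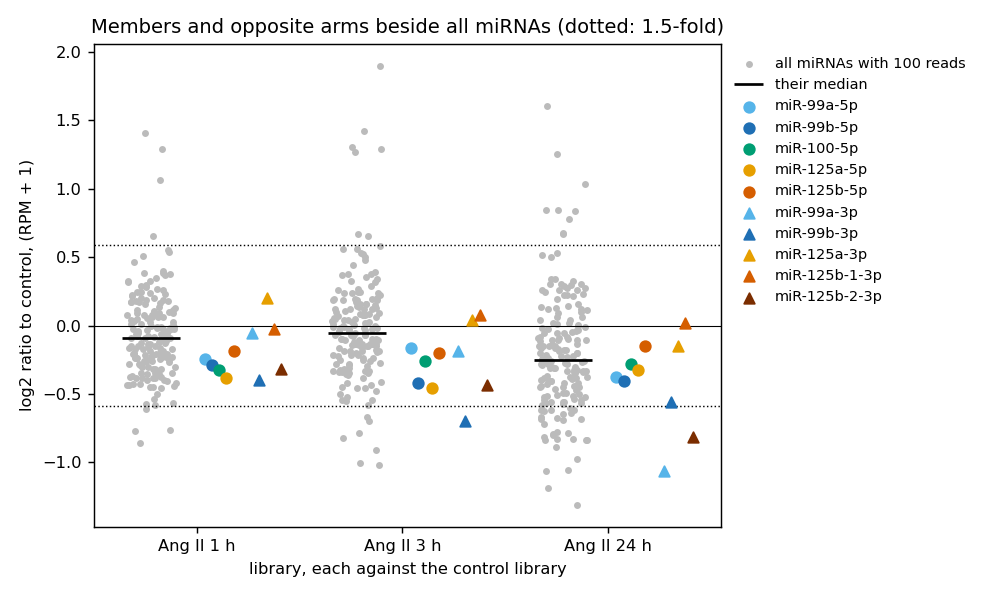
Log2 ratio to the control library at 1 h, 3 h and 24 h of Ang II, computed on RPM + 1, for the 5 members (circles), 5 opposite arms with 100 reads (triangles) and all tested miRNAs (grey points, 175, 177 and 179 of them, bar at their median); dotted lines mark 1.5-fold. All circles lie between 0 and the lower dotted line, and at 24 h the triangles of miR-99a-3p and miR-125b-2-3p lie below it.

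miR-351-5p, which carries the miR-125 seed but is encoded on the X chromosome, was past 1.5-fold lower at 24 h, as were 16.2% of 179 tested miRNAs. It had 518, 508 and 307 reads at 1 h, 3 h and 24 h, against 553 in the control library. Its ratios were 1.03 at 1 h (0.910 to 1.16), 0.920 at 3 h (0.814 to 1.04) and 0.550 at 24 h (0.477 to 0.633). At 21.1 RPM at 24 h and 38.4 RPM in the control library it was a small part of all reads with that seed.

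The let-7 neighbours, which repress cell-cycle and growth genes, were not called at any time either. let-7e-5p, encoded between Mir99b and Mir125a, had 1771, 1527 and 1347 RPM at 1 h, 3 h and 24 h, against 1693 RPM in the control library. At 1 h it was therefore at 1.05 times the control (1.03 to 1.06) while miR-99b-5p and miR-125a-5p on either side were at 0.820 and 0.765. miR-125a-5p made up 22.1% of its reads and those of let-7e-5p together at 1 h, 23.8% at 3 h and 28.0% at 24 h, against 27.9% in the control library. let-7c-5p had ratios of 0.910, 0.861 and 0.773 and let-7a-5p of 0.972, 0.952 and 0.839 at 1 h, 3 h and 24 h. Both have other genes in the genome, so their reads are not those of the clusters alone.

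The opposite arms of the members' hairpins, the 3′ strands that are mostly discarded, are shown next because they tell the hairpins apart where the members cannot (GRCr8, seed in capitals). miR-125b-1-3p comes from chromosome 8, miR-99a-3p and miR-125b-2-3p come from chromosome 11 and miR-99b-3p from chromosome 1.
miR-99a-3p: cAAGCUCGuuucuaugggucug
miR-125b-2-3p: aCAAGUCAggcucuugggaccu
miR-125b-1-3p: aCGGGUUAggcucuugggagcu
miR-99b-3p: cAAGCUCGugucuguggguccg
All 6 opposite arms were detected, each far below its member, with 0.038% to 3.77% of the reads of the pair. miR-99a-3p and miR-99b-3p share the seed AAGCUCG. There were 0.944 to 1.69 reads of miR-125b-1-3p for each read of miR-125b-2-3p, and miR-100-3p had 20 to 40 reads.

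At 24 h, 2 of the 5 opposite arms with 100 reads were past 1.5-fold lower, beside 16.2% of all tested miRNAs, and both are encoded in the chromosome 11 cluster. miR-99a-3p had 133, 132 and 66 reads at 1 h, 3 h and 24 h, against 152 in the control library. miR-125b-2-3p had 1248, 1257 and 974 reads, against 1709. The 24 h library was thus the lowest for both, with ratios of 0.430 (0.317 to 0.578) and 0.564 (0.521 to 0.611). Under TMM or median-of-ratios factors miR-99a-3p stayed past 1.5-fold and miR-125b-2-3p did not (log2 ratio -0.57 with either), whereas with a pseudocount of 10 RPM miR-125b-2-3p stayed past it (-0.74) and miR-99a-3p did not (-0.50).

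miR-125b-1-3p of chromosome 8, with all its tags counted, was near its control level at each time. It had 110.0, 118.2 and 113.4 RPM at 1 h, 3 h and 24 h, against 112.1 RPM in the control library, and its ratio at 24 h was 1.01 (0.944 to 1.08). Counting the mature sequence alone, on fewer than 100 reads in each library, its log2 ratio was 0.49 at 1 h, 0.82 at 3 h and -0.081 at 24 h. miR-125b-2-3p had 95.1, 87.5 and 67.0 RPM, against 118.7 RPM. Of the reads of both 3′ arms, miR-125b-2-3p made up 51.4% in the control library (49.7 to 53.1), 46.4% at 1 h (44.5 to 48.3), 42.5% at 3 h (40.7 to 44.3) and 37.1% at 24 h (35.3 to 39.0). This share is taken within a library and does not depend on scaling; its intervals do not overlap between neighbouring times. Whether it would differ between 2 control cultures cannot be told from 1 library per group.

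**Figure D3:**
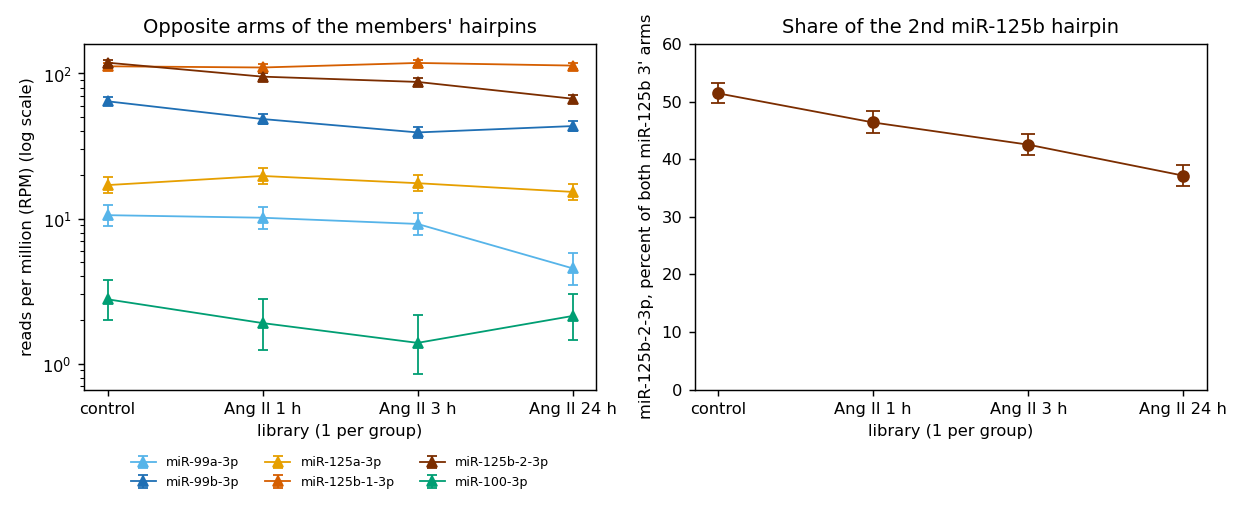
Left, level of each opposite arm (RPM, log axis) by library; right, miR-125b-2-3p as a percent of the reads of both miR-125b 3′ arms; bars are exact 95% intervals for counting error, 1 library per group. The share is 51.4% in the control library and 37.1% at 24 h, while miR-125b-1-3p stays between 110.0 and 118.2 RPM.

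The other opposite arms varied less or at other times. miR-99b-3p had 48.6, 39.2 and 43.4 RPM at 1 h, 3 h and 24 h, against 64.3 RPM in the control library, and at 3 h it was past 1.5-fold lower (0.610, 0.549 to 0.678), as 1 of 5 arms beside 3.95% of all tested miRNAs. At 24 h its ratio was 0.675 and it was not called. At 1 h 0 of 5 arms were called. miR-125a-3p had 258, 252 and 222 reads, against 245 in the control library, with intervals of its ratios that include 1 at each time. As a share of the reads of both arms of its hairpin, miR-125a-3p held 3.77% at 1 h, 3.55% at 3 h and 2.84% at 24 h, against 2.53% in the control library, and miR-99a-3p held 1.98%, 1.70% and 0.978%, against 1.74%.

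The 3′ ends differed between the members. miR-125b-5p was nearly uniform, with 88.3% of its reads exactly as long as the mature form in the control library, 89.1% at 1 h, 89.0% at 3 h and 87.6% at 24 h. miR-99b-5p was split between 21 nt and 22 nt, with 45.0%, 45.0%, 42.1% and 41.6% exactly mature. Of miR-125a-5p reads 31.7%, 31.2%, 29.5% and 24.0% were exactly mature, of miR-99a-5p 19.4%, 20.2%, 19.6% and 13.9%, and of miR-100-5p 10.5%, 11.6%, 10.9% and 10.2%. In the control library the median of 78 miRNAs with at least 1000 reads in each library was 42.7%. The reference mature form was therefore a minor form of miR-100-5p in these cells, and for miR-99a-5p the share rests on the assumed length of 22 nt.

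**Figure D4:**
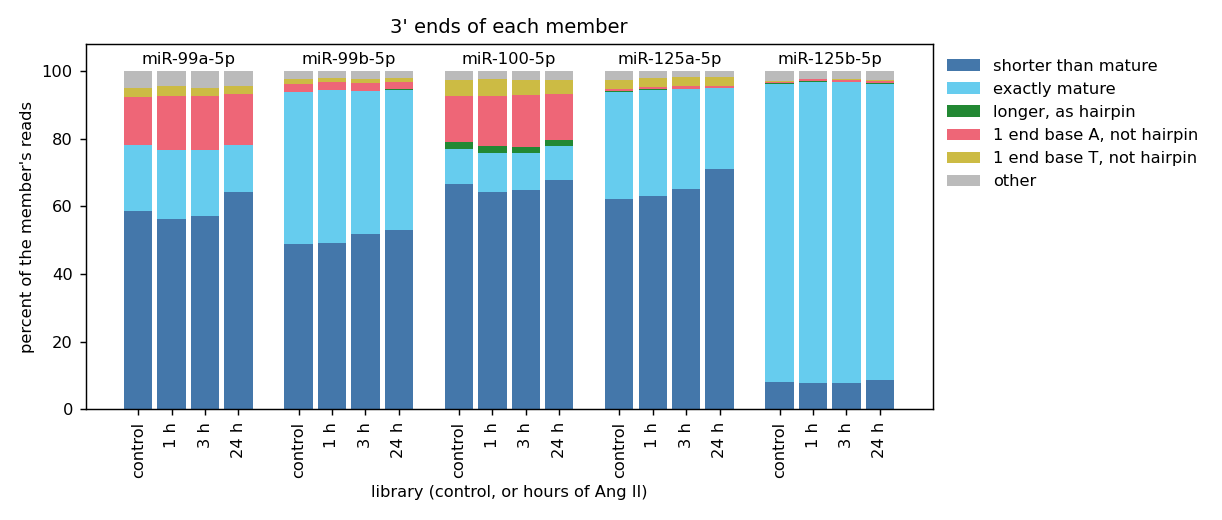
3′ ends of each member in the 4 libraries, as percent of its reads: shorter than the mature form, exactly mature, longer as in the hairpin, ending in 1 base A or T that the hairpin does not have, and other. miR-125b-5p is 87.6% to 89.1% exactly mature, and the band with an added A is widest in miR-99a-5p and miR-100-5p.

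The main forms of miR-100-5p are printed because its ends include a base that its hairpin does not encode. They are written as DNA, as sequenced, with bases past the mature end in capitals.
21 nt: aacccgtagatccgaacttgt
22 nt, mature: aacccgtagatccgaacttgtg
23 nt with A: aacccgtagatccgaacttgtgA
23 nt with C: aacccgtagatccgaacttgtgC
The 21 nt form had 29202, 33990 and 35188 reads at 1 h, 3 h and 24 h, against 41691 in the control library. The form with A had 6776, 8028 and 6944 reads, against 8511, and outnumbered the mature form in every library (5343, 5774 and 5370 reads, against 6627). The next base of the Mir100 hairpin is C, and that form had 920, 925 and 939 reads, against 1266.

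An added A that the hairpin lacks was a feature of miR-100-5p and miR-99a-5p at all times. It stood at the end of 13.6% of miR-100-5p reads in the control library and 14.9%, 15.3% and 13.4% at 1 h, 3 h and 24 h. For miR-99a-5p it was 14.4%, 15.9%, 15.8% and 15.1%. Among the 78 miRNAs, 3 had a larger share than miR-99a-5p in each library, and 4 or 5 a larger one than miR-100-5p. The median of the 78 was 2.48% in the control library and 2.85%, 2.94% and 2.50% at 1 h, 3 h and 24 h. An A that a hairpin encodes at that place was not counted as added, which can make the share of such a miRNA smaller. How many of the 78 this concerns was not counted, so these ranks and medians are not a fully like comparison. miR-99b-5p had between 2.13% and 2.52%, miR-125a-5p between 0.487% and 0.730% and miR-125b-5p between 0.526% and 0.756%.

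The 3′ adapter that the labels name begins with A as well, so an adapter base left on a read and an added A have the same letter. Their parts in these shares were not tested. The mature forms of miR-125a-5p and miR-125b-5p themselves end in A. An A added to their forms 1 base shorter was counted as exactly mature. Their shares of added A therefore cannot be compared with those of the other members. A last base read wrongly cannot be told apart from an added base either. The end classes of miR-125b-5p were read on the Mir125b1 hairpin alone.

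miR-125a-5p reads ended earlier at 24 h, and the 3 main forms are printed to show by which bases they differ (as DNA, no base outside the mature form).
22 nt: tccctgagaccctttaacctgt
23 nt: tccctgagaccctttaacctgtg
24 nt, mature: tccctgagaccctttaacctgtga
The 24 nt form had 156.7, 140.9 and 125.5 RPM at 1 h, 3 h and 24 h, against 207.9 RPM in the control library. In RPM it was past 1.5-fold lower at 24 h (0.604, 0.569 to 0.640), as were 17.2% of 1114 single tags of all miRNAs. Calls of single tags were not repeated with other scalings. The 23 nt form had 186.1, 177.1 and 184.0 RPM, against 234.5 RPM. The 22 nt form had 118.6, 122.5 and 174.5 RPM, against 161.9 RPM, and at 24 h stood at 1.08 times the control (1.02 to 1.14). At 24 h the 22 nt form was thus above the control while the longer forms were below it.

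Measured within miR-125a-5p, and so apart from any scaling, 63.1%, 65.1% and 71.1% (70.1 to 72.1) of its reads were shorter than the mature form at 1 h, 3 h and 24 h, against 62.2% in the control library (61.2 to 63.2). Its mean tag length was 23.08 nt at 1 h, 23.05 nt at 3 h and 22.90 nt at 24 h, against 23.10 nt in the control library. The change of -0.196 nt at 24 h was exceeded by 2 of 78 miRNAs, whose median change was -0.030 nt. Its share of exactly mature reads, as 24 h minus control, changed by -7.71 points, and 0 of the 78 miRNAs lay further below the control.

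miR-99a-5p also had fewer full-length reads at 24 h. Its 22 nt form had 101.1, 104.4 and 64.1 RPM at 1 h, 3 h and 24 h, against 115.7 RPM in the control library, and was past 1.5-fold lower at 24 h (0.553, 0.510 to 0.600). Its 21 nt form had 279.2, 298.0 and 289.9 RPM, against 343.4 RPM, a ratio of 0.844 at 24 h. The share of its reads shorter than 22 nt was 64.1% at 24 h, against 58.6% in the control library. Counting the mature form alone, 2 of 5 members, miR-99a-5p and miR-125a-5p, were past 1.5-fold lower at 24 h. Beside them, 14.1% of 128 miRNAs counted in that way were lower and 6.25% higher. These calls were made in RPM and were not repeated with other scalings.

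The other members differed less from the control in mean tag length at 24 h. In miR-99b-5p 49.3%, 51.9% and 52.9% of reads were shorter than mature at 1 h, 3 h and 24 h, against 48.8% in the control library. The rise of 4.06 points at 24 h was exceeded by 6 of the 78 miRNAs. Its exactly mature share changed by -3.37 points at 24 h, with 3 of the 78 further below the control. For miR-125b-5p and miR-100-5p 22 and 27 of the 78 lay further below in that share. The mean tag length at 24 h minus control was -0.042 nt for miR-99b-5p, -0.049 nt for miR-99a-5p, -0.024 nt for miR-100-5p and -0.002 nt for miR-125b-5p, with 26 to 61 of the 78 miRNAs further out. Of the members' most read tags, 6 for each member, 28 had 100 reads, and 0 of these were higher and 4, 1 and 5 lower by the 1.5-fold rule at 1 h, 3 h and 24 h. Beside them 8.62% of 1091, 10.1% of 1109 and 17.2% of 1114 single tags of all miRNAs were lower, and 2.38%, 3.16% and 2.96% higher.

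**Figure D5:**
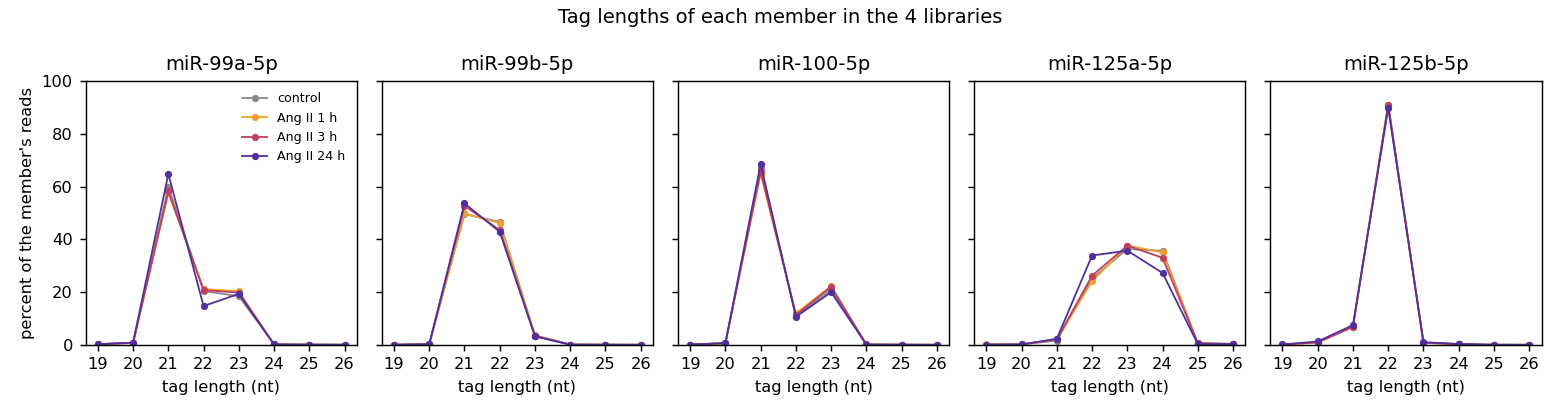
Tag lengths (nt) of each member as percent of its reads, one line per library. miR-125b-5p peaks at 22 nt and miR-100-5p at 21 nt in all 4 libraries, and the 24 h line of miR-125a-5p lies above the others at 22 nt and below them at 24 nt.

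The 5′ ends matter for the targets because a start 1 base further in gives another seed. Such tags were a sizeable part of miR-100-5p and less common in miR-99b-5p; the most read ones are printed with their seed in capitals, as DNA.
miR-100-5p, start +1: aCCCGTAGatccgaacttgtgc
miR-99b-5p, start +1: aCCCGTAGaaccgaccttgcg
Both carry the seed CCCGTAG. Starts at +1 amounted to 11.6% of the main start of miR-100-5p in the control library and 12.1%, 11.6% and 11.0% at 1 h, 3 h and 24 h, on 7337, 5574, 6157 and 5766 reads. For miR-99b-5p it was 1.92%, 1.89%, 1.83% and 1.79%. These shares varied little between the libraries.

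Of the other starts, those at +2 made up a lower share after Ang II in both miR-125 members. For miR-125a-5p they were 1.88%, 1.53% and 1.46% of the main start at 1 h, 3 h and 24 h, against 2.88% in the control library. For miR-125b-5p they were 0.708%, 0.687% and 0.556%, against 1.01%. Shares of starts were computed for the members alone, so no background of other miRNAs stands beside these values. miR-99a-5p had tags that start 1 base earlier, at 8.72%, 8.36% and 7.44%, against 8.88%. None of these tags is in the levels above; adding the starts at +1 and +2 left 0 of 5 members past 1.5-fold at each time.

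miR-99a-5p and miR-100-5p differ at one base within the window used for matching, so the reads with other bases at that position are given here. Reads with A16C amounted to 1.78% of miR-100-5p reads in the control library and 2.02%, 2.19% and 2.02% at 1 h, 3 h and 24 h. Reads with A16G were between 0.039% and 0.054%. Reads with A16U, which were counted as miR-99a-5p, amounted to 13.5%, 14.3%, 14.4% and 12.7%. miR-99b-5p and miR-125b-5p also have C at that position, but the A16C reads match no member over the whole window. How many miR-100-5p molecules were misread as miR-99a-5p was not tested. Whether the A16C share bears on such misreading was not tested either.

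By how their level ran over the 4 libraries, the miRNAs most like each seed group were named as a description, from the root mean square difference of centred log2 (RPM + 1) among 130 candidates with at least 1000 reads in all. For the summed miR-99/100 group these were miR-28-3p (difference 0.035), let-7b-5p (0.037) and miR-214-3p (0.044), where the median candidate was at 0.196. For the summed miR-125 group they were miR-1839-5p (0.013), miR-23b-3p (0.032) and miR-22-3p (0.032), with a median of 0.178. let-7b-5p had 20442, 19448 and 19528 RPM at 1 h, 3 h and 24 h, against 26654 RPM in the control library. These miRNAs lay, like both groups, highest in the control library, and all share the same 4 libraries and their depths.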

How the data were processed

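Each deposited file lists the distinct sequences of 1 library with their raw counts, without header or normalization. Per the labels' protocols, adapters were ligated to 0.5 µg of total RNA, the cDNA was amplified for 12 cycles, RNAs of 17 to 52 nt were selected and the libraries were run on a Genome Analyzer IIx. Novoalign and the build rn4 are named in the submitters' processing notes without a role; trimming and filtering are not given in the sources used here, and how reads were trimmed can move 3′ ends. Tags were 16 to 42 nt long. A row naming no sequence held 7.07%, 5.66%, 5.13% and 6.36% of reads (control, 1 h, 3 h, 24 h) and was left out.

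Tags were matched by their first 18 nt to RefSeq mature miRNAs (GRCr8) and scaled to RPM, reads per 1e6 sequence reads. Calls needed 1.5-fold on RPM + 1 and 100 reads in the higher library. Counts have exact Poisson, shares Clopper-Pearson and ratios exact conditional binomial intervals. The text names the members, their opposite arms, let-7 neighbours, seed mates and the 3 most like miRNAs per seed group. Members and lists were chosen with earlier results of these data known. TMM factors came from edgeR 4.0.16 in R 4.3.3; the rest used scipy 1.17.1, pandas 2.3.3, numpy 2.4.6 and matplotlib 3.10.9 in Python 3.11.15. On simulated data the procedure was tested first, with 408 miRNAs of which 175 were tested in the 24 h comparison. All 20 miRNAs made 2-fold higher and all 20 made 2-fold lower were called, and 0 of 135 unchanged ones. The simulated counts were Poisson draws from the control library's levels, without variation between cultures or libraries. Only miRNAs with more expected reads than a call needs were changed. The simulation therefore checks the procedure and gives no rate of false calls between real libraries. Other scalings, a pseudocount of 10 RPM, a 2-fold limit, a minimum of 20 reads, other matching and the 1 h library as reference were the alternatives.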

Additional observations from a re-analysis of the deposited data

Results flagged for a closer look

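Shares of 3′ ends of 2 members lay on opposite sides of the control at different times, each beyond its counting interval; the difference between times was not tested. The share of miR-100-5p reads shorter than the mature form, as library minus control, was -2.42 points at 1 h, -1.57 points at 3 h and 1.18 points at 24 h. The share of exactly mature miR-125b-5p reads was 0.808 points above the control at 1 h, 0.685 points above it at 3 h and -0.749 points from it at 24 h.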

How the results depend on the processing

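The members' median log2 ratio at 1 h, 3 h and 24 h was -0.38, -0.38 and -0.40 when scaled to miRNA reads, -0.21, -0.22 and -0.075 with TMM factors, -0.18, -0.22 and -0.077 with median-of-ratios factors and -0.19, -0.20 and -0.51 with the mature sequence alone; against the 1 h library it was -0.0081 at 3 h and 0.042 at 24 h. Members past 1.5-fold stayed at 0 in every alternative except the mature sequence alone at 24 h, with 2. All miRNAs past 1.5-fold numbered 8, 14 and 38 at 1 h, 3 h and 24 h. At 24 h there were 25 with TMM factors (13 higher, 12 lower), 25 with median-of-ratios factors (13 higher, 12 lower) and 53 scaled to miRNA reads (9 higher, 44 lower), where the main split was 9 higher and 29 lower. At 1 h the splits under these 3 scalings were 6 higher and 3 lower, 7 and 3, and 3 and 9, and at 3 h 10 and 7, 10 and 7, and 5 and 14. A pseudocount of 10 RPM gave 5 at 1 h and 19 at 24 h, a 2-fold limit 3, 7 and 7, a minimum of 20 reads 24 at 3 h, and the 1 h library as reference 2 at 3 h and 20 at 24 h. Opposite arms past 1.5-fold at 24 h were 2, or 3 when scaled to miRNA reads (miR-99b-3p at -0.63 as well), 1 with TMM factors, 1 with median-of-ratios factors and 1 against the 1 h library; these alternatives for the arms were chosen after seeing the data. The cause of these moves was not tested. No paired analysis was possible because each group has 1 library, and for the same reason no replicate could be left out. Depth limits miR-100-3p, with 20 to 40 reads, and the opposite arms of low count.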
